A study of Mus musculus with 24 samples.

Results

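The cytosolic ribosomal protein genes were followed in RNA from mouse testis between 20 and 26 days after birth, in wild-type (WT) males and in males without functional Atad2 (KO). The members were all genes whose symbol has the form of Rpl or Rps followed by a number and an optional letter or digit, together with Rpsa, Rplp0, Rplp1 and Rplp2. Kinases of the Rps6k family and the 7 gene rows whose symbol carries "-ps" were left out. The rule gave 87 members of the 24456 genes in the tables, 53 of the large and 34 of the small ribosomal subunit. In all, 86 members passed the filter on low counts and were tested. The remaining member, Rps27rt, was at 0 in every library.

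The cytosolic ribosome is built from ribosomal RNA and a set of proteins that are needed in near-equal amounts, and the genes for these proteins are among the most strongly transcribed in most cells. Their messenger RNAs usually begin with a run of C and T bases, the terminal oligopyrimidine tract, through which their translation is adjusted together. In male germ cells several X-linked ribosomal protein genes have autosomal copies, and the X chromosome is transcriptionally silenced during meiosis. The days sampled cover the passage of the first wave of germ cells from late meiosis into spermatids.

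The 24 libraries were whole-testis total RNA depleted of ribosomal RNA: 4 WT and 4 KO at day 20, 4 WT and 4 KO at day 22, 2 WT and 2 KO at day 24, and 2 WT and 2 KO at day 26. The study's methods state fewer replicates at day 20 than the labels, and all labelled libraries were used. Per the study's methods, KO males were homozygous for an allele that makes a non-functional fusion of ATAD2 with lacZ, from which the neo cassette and an Atad2 exon had been removed by crossing to mice with CMV-Cre, which acts in all tissues. The labels give WT or KO and the age, and neither the strain nor how many animals gave each library. P-values therefore measure the spread between these libraries. In bulk testis, fewer cells of a type and less RNA per cell cannot be told apart.

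The libraries held 10709667 to 19491935 counts assigned to genes, so that 3 counts corresponded to 0.153 to 0.316 CPM (counts relative to library size, after the TMM scaling of edgeR, which adjusts for composition). Atad2 counts were 30.8 to 53.0 CPM in the KO libraries and at least 76.1 CPM in the WT libraries, with no overlap. All 8 round spermatid markers and all 5 elongating spermatid markers were higher at day 26 than at day 20 in both genotypes, and 6 of 8 Sertoli markers in WT and 5 of 8 in KO were lower. Of 5 peritubular markers 3 in WT and 4 in KO were lower, and of 6 Leydig markers 6 in WT and 2 in KO were higher. Spermatid markers differed between genotypes at the earlier ages. Round spermatid markers summed on average to 103 CPM in KO and 51.5 CPM in WT at day 20, to 279 and 164 CPM at day 22, to 457 CPM in both at day 24, and to 855 and 780 CPM at day 26. Elongating spermatid markers summed to 16.3 CPM in KO and 1.46 CPM in WT at day 20, to 109 and 16.8 CPM at day 22, to 774 and 184 CPM at day 24, and to 2174 and 1638 CPM at day 26. In edgeR 7 of the 8 round spermatid markers were higher in KO at day 20 and 4 of the 5 elongating spermatid markers at day 22. Over the mean of the days, 5 of 8 round spermatid, 5 of 5 elongating spermatid and 1 of 6 Leydig markers were higher in KO, while 2 of 5 peritubular and 2 of 3 endothelial markers were lower. Markers of epididymis, a duct attached to the testis, summed to 0 to 716 CPM between libraries, with means of 69.6, 136, 358 and 273 CPM in WT and 12.7, 32.0, 78.4 and 64.1 CPM in KO in the order of the days, and neither of the 2 that were tested was called between genotypes. The part of these markers in the results below was not tested.

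A pair of libraries stood apart. WT day 20 replicate 2 had the largest share of read pairs with several alignments (13.7% of all pairs) and of mitochondrially encoded transcripts (3.26% of assigned counts). It was the highest of its group for 76 of the 86 tested members. KO day 22 replicate 4 had the smallest shares, 4.74% and 0.170%, and was the lowest of its group for 82 of 86. Counts of members called, medians over the members and a part of the single changes are therefore also given without both of these libraries, an alternative chosen after the values were seen.

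The sequences at the transcription start of 4 members are shown because a C and T run opens their transcript at the annotated start. They stand beside those of the autosomal copies Rpl39l and Rpl10l, where none does. The parents Rpl39 and Rpl10, and other members such as Rpl4 and Rpl5, have no such run at the first base either. Each sequence shown is the RefSeq start of the GRCm38.p6 assembly with 25 bases on either side, 5′ to 3′ on the strand of the gene. Capitals mark the longest run of C and T among the 25 bases after the start, and the run of Rpl39l reaches the end of the stretch shown.
Rpl35, chr2:39005107-39005156, minus strand: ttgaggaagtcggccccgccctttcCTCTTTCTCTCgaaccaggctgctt
Rps6, chr4:86857343-86857392, minus strand: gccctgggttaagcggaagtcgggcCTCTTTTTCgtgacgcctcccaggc
Rpl28, chr7:4792940-4792989, plus strand: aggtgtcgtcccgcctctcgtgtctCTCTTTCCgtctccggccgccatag
Rpl7a, chr2:26910782-26910831, plus strand: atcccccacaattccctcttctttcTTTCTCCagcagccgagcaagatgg
Rpl39l, chr16:10170203-10170252, plus strand: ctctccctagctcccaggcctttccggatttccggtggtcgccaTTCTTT
Rpl10l, chr12:66284377-66284426, minus strand: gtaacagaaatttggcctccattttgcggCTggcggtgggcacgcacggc

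In the first 50 bases after the start, 48 of the 66 members with a RefSeq start sequence (72.7%) held an unbroken run of at least 7 C or T bases, against 8308 of 27025 genes (30.7%). The complementary run of A and G, which is the same run read on the other strand, was present in 13.6% of members and 35.6% of genes. A match describes these letters and is not a site. The other 21 members had no entry.

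The coding sequences of Rpl39 and Rpl39l are given because the 2 members differed in level and in change with age. RPL39 is a very short protein that lines the tunnel through which the growing chain leaves the ribosome. Both reading frames are 153 bases long without the stop codon, and 130 of these bases are the same. The 23 differing bases are in capitals, and the sequences come from the GENCODE M21 transcripts.
Rpl39, chromosome X: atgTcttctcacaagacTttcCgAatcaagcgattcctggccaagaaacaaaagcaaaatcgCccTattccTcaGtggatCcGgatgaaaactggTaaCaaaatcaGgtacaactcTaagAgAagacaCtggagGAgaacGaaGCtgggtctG
Rpl39l, chromosome 16: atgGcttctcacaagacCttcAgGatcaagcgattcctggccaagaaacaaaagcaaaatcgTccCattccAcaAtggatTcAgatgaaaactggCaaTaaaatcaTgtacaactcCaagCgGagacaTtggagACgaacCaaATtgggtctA

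The share of assigned counts taken by the 87 members was lower at the later ages. In WT at day 20 the share was 1.19%, 1.99%, 1.52% and 1.38% in the 4 libraries, and in KO at day 20 it was 1.67%, 1.55%, 1.30% and 1.23%. At day 22 the WT libraries had 1.31%, 1.41%, 1.24% and 1.27%, and the KO libraries 1.35%, 1.14%, 1.27% and 0.773%. The 2 WT libraries of day 24 had 1.13% and 1.20%, and the 2 KO libraries 1.16% and 1.13%. By day 26 the shares were 1.07% and 0.959% in WT and 1.0% and 0.976% in KO. All 4 libraries of day 26 lay below all 8 libraries of day 20, while WT and KO overlapped at every age. With all read pairs as denominator the ages overlapped, since WT day 20 replicate 1 had 0.420% and WT day 26 replicate 1 had 0.491%. The 0.773% of KO day 22 replicate 4 was the only share below those of day 26. The 95% Wilson interval of a single share was narrow, for example 1.98% to 2.0% for the highest library, and covers counting error only.

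**Figure D1:**
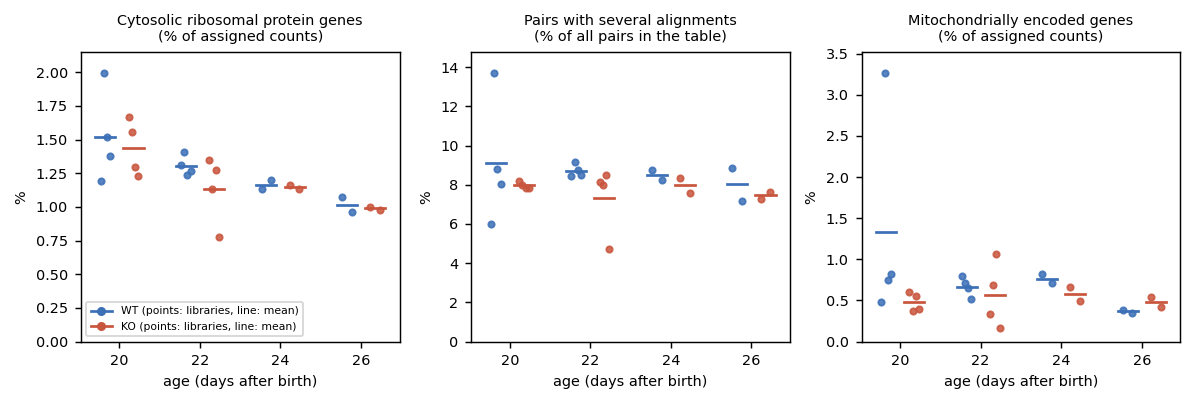
Share of assigned counts from the 87 ribosomal protein genes, share of read pairs with several alignments and share of counts from mitochondrially encoded genes (vertical axes, %) in each library by age in days, with WT in blue, KO in red and lines at the group means. The member share is 1.19% to 1.99% at day 20 and 0.959% to 1.07% at day 26, and WT day 20 replicate 2 and KO day 22 replicate 4 hold the extremes of the first 2 panels.

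The mean share was 1.52% ± 0.343 (SD, n = 4) in WT and 1.44% ± 0.207 (n = 4) in KO at day 20, and 1.02% ± 0.0802 (n = 2) and 0.989% ± 0.0182 (n = 2) at day 26. Counts of large-subunit members exceeded those of small-subunit members by a ratio of 1.35 to 1.57 in every library. The shares are a description and were not tested.

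Levels between genes were compared as mean CPM over the 24 libraries per kilobase of the main transcript. Ranks, and the ratios of copies to parents below, depend on which transcript was taken. It had 5130 bases for Rps15a and 3706 for Rps20, but only 474 of 2911 exon bases for Rpl22. Rpl41, which encodes one of the shortest proteins of the ribosome, was highest with 495 CPM per kilobase. Rps26, whose protein sits where the messenger RNA leaves the small subunit, followed with 492, and Rps14 with 440. Rplp0, the base of the ribosomal stalk that recruits translation factors, had 402. The other stalk genes were lower, at 306 for Rplp1 and 67.3 for Rplp2. Rpsa, a small-subunit protein also known as a laminin receptor precursor, had 212. The median was 171 CPM per kilobase over the 53 large-subunit members and 196 over the 34 small-subunit members.

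Below the others stood 7 members with a mean under 7 CPM. These were Rpl34 (5.78 CPM), Rpl30 (4.05), Rpl37rt (3.31), Rps27 (1.67), Rpl26 (1.34), Rpl3l (0.367) and Rps27rt (0). Rpl34, Rpl30, Rps27 and Rpl26 encode core proteins of the ribosome. Only uniquely aligned pairs were counted in these tables, and 98.5% of the 75-base stretches of the Rps27 transcript also occur in transcripts of other genes, against 57.5% for Rpl26, 41.4% for Rpl34 and 40.1% for Rpl30. Such stretches made up over 50% of the transcript in 37 of the 87 members, with a median of 47.5%, and 4 members, Rpl3l and Rpl39l among them, had none. Several members with a large shared part were nevertheless well counted, such as Rpl10a (87.6% shared, 75.4 CPM) and Rps12 (89.5%, 131 CPM). The levels of members with shared sequence are therefore uncertain, and the part of this in the low levels was not tested.

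**Figure D2:**
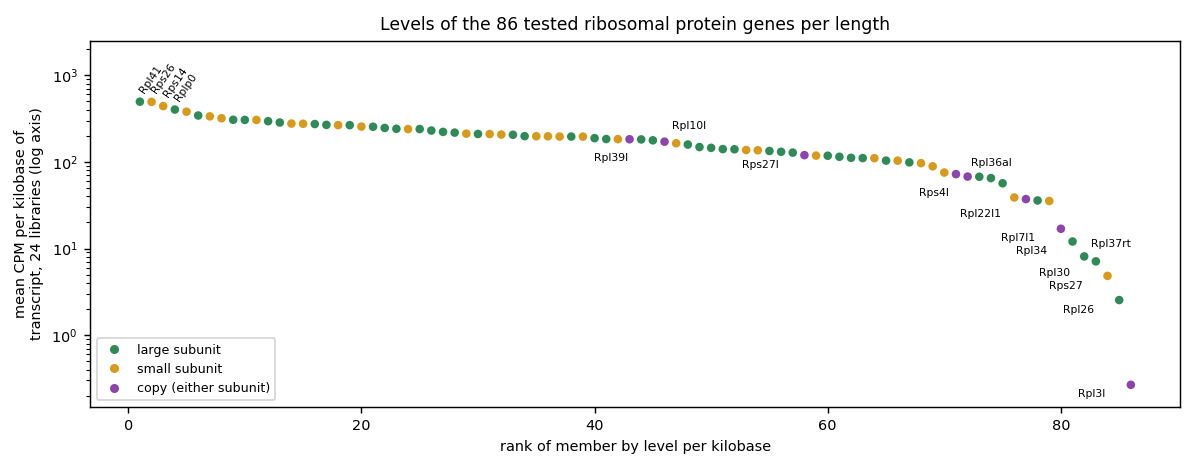
Mean CPM per kilobase of transcript over 24 libraries (vertical log axis) for the 86 tested members in rank order (horizontal axis), with the large subunit in green, the small subunit in orange and the 8 paralogous copies in purple. The 80 members with a mean of 7 CPM or more lie between 16.9 and 495 CPM per kilobase, and Rpl3l is lowest at 0.267.

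The scatter of the members within groups depended on the 2 libraries that stood apart. The median SD of log2 CPM between libraries of 1 group was 0.33 over the 86 tested members, against 0.27 over all 17170 tested genes and 0.20 over the 1846 genes whose mean CPM lay between the members' quartiles. Without these libraries the medians were 0.18, 0.20 and 0.14 in the same order. Rpl7l1, a relative of Rpl7, had the smallest SD of the 86 at 0.09, and Rpl39 had one of the largest at 0.57, both with all libraries.

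Day 26 was compared with day 20 to show how the family changes as spermatids appear. In WT, 24 of the 86 members (27.9%) were lower at day 26 and 3 (3.49%) were higher in edgeR's quasi-likelihood test at an adjusted p under 0.05. Of all genes tested, 18.1% were lower and 24.4% were higher. The median log2 fold change was −0.48 over the members and −0.04 over all genes. Without the 2 libraries that stood apart the members' median was −0.19, with 24 members lower and 6 higher (27.9% and 6.98%, against 19.9% and 27.5% of all genes). Of the large-subunit members 15 of 53 fell, and of the small-subunit members 9 of 33. In 32 of the 86 members (37.2%) both day 26 libraries lay below all 4 day 20 libraries, as they did in 22.5% of all genes.

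Rps2, a small-subunit protein near the entry of the messenger RNA, had the lowest adjusted p. Its level was 236, 201, 250 and 228 CPM in the WT libraries of day 20 and 165 and 145 CPM at day 26. The groups did not overlap, and Rps2 fell by 0.56 ± 0.11 on the log2 scale (SE, adjusted p = 0.000466). WT day 20 replicate 2 was the lowest library for Rps2, unlike for most members.

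Rpl10a, a protein of the mobile stalk on the side where spent transfer RNA leaves, had 75.4, 213, 111 and 84.9 CPM at day 20 and 51.1 and 42.8 CPM at day 26. Its log2 fold change of −1.36 ± 0.30 (adjusted p = 0.000896) was the largest fall among the members, and it was −0.93 without the libraries that stood apart. Rpl7a, a large-subunit protein that binds ribosomal RNA early in assembly, had 248, 370, 244 and 218 CPM at day 20 and 154 and 137 CPM at day 26. These groups did not overlap (log2 fold change −0.89 ± 0.20, adjusted p = 0.00127).

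Rps19, which is needed to mature the RNA of the small subunit, had 89.0, 155, 109 and 107 CPM at day 20 against 66.7 and 60.8 at day 26, a log2 change of −0.85 ± 0.21 (adjusted p = 0.00228). Rpl3, which reaches into the peptidyl transferase centre, had 205, 321, 234 and 241 CPM against 166 and 145, a change of −0.69 ± 0.17 (adjusted p = 0.00236). Both were lower in each day 26 library than in any of day 20.

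Rpl14 had 156, 297, 171 and 169 CPM at day 20 and 83.9 and 95.9 at day 26. Rpl28 had 150, 257, 158 and 139 CPM against 85.4 and 78.8. Rps28 had 88.8, 207, 113 and 94.7 CPM against 57.3 and 45.8. In these 3 members the highest value was that of WT day 20 replicate 2, and the day 26 libraries lay below the other day 20 libraries as well. The log2 changes were −1.14 ± 0.28, −1.10 ± 0.29 and −1.29 ± 0.34 in that order, and −0.86, −0.84 and −0.92 without the libraries that stood apart.

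Among the members named for other reasons, Rpsa (−0.75 ± 0.20), Rplp1 (−0.99 ± 0.33), Rps26 (−1.06 ± 0.30), Rpl41 (−1.0 ± 0.37) and Rpl36a (−0.88 ± 0.32) also fell. When each library was left out in turn, their smallest falls were −0.55, −0.62, −0.68, −0.48 and −0.72 in that order. Rpl41 was the clearest case of dependence on 1 library: 240, 753, 277 and 261 CPM at day 20 against 210 and 174 at day 26, so that its log2 change was −0.42 (adjusted p = 0.0291) when the libraries that stood apart were left out.

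The 3 members that rose in WT were Rplp2, Rpl39l and Rps4l. Rplp2, the stalk partner of Rplp1, had 49.7, 31.3, 73.5 and 60.8 CPM at day 20 and 93.1 and 89.0 CPM at day 26 (log2 fold change 0.75 ± 0.23, adjusted p = 0.0127, and 0.59 without the libraries that stood apart). Rplp1 moved the other way, with 147, 392, 171 and 181 CPM against 122 and 101. WT day 20 replicate 2 was lowest for Rplp2 and highest for Rplp1.

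Rpl39l had 89.0, 170, 83.6 and 102 CPM at day 20 and 197 and 152 CPM at day 26 (0.65 ± 0.26, adjusted p = 0.0456). The groups overlapped through WT day 20 replicate 2, and without the libraries that stood apart the change was 0.95 (adjusted p = 0.00031). Rps4l, which the annotation lists as a transcribed processed pseudogene on chromosome 6 and which resembles Rps4x, had 57, 30.6, 46.4 and 43.4 CPM against 62.2 and 63.9 (0.51 ± 0.16, adjusted p = 0.0136, and 0.39 without the libraries that stood apart). The number of members called in WT depended on single libraries. Without WT day 26 replicate 1, 13 members passed, and without replicate 2, 6 passed, while 43 passed without WT day 20 replicate 1. In these fits 15.1%, 6.98% and 47.7% of members were lower, against 10.5%, 7.87% and 20.6% of all genes.

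**Figure D3:**
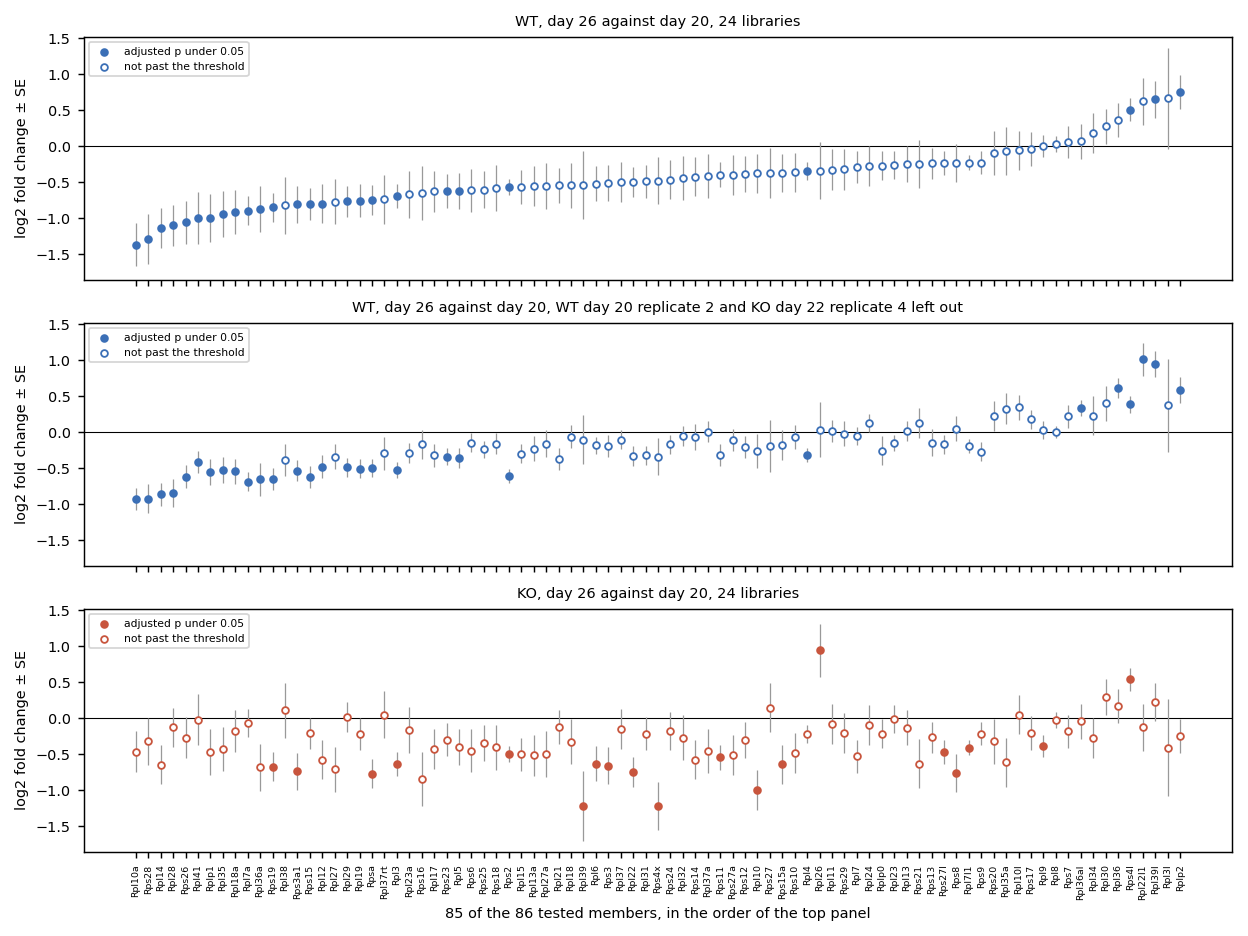
Log2 fold change ± SE of day 26 against day 20 (vertical axes) for 85 of the 86 tested members in the order of the WT change, in WT with all libraries (top), in WT without the 2 libraries that stood apart (middle) and in KO (bottom), with filled points past the adjusted p of 0.05. The members called lower in WT lie between −1.36 and −0.35 in the top panel, those shown except Rps2 lie nearer 0 in the middle one, and the X-linked Rpl10, Rpl39 and Rps4x stand lowest in the KO panel.

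In KO, 18 of the 86 members (20.9%) were lower at day 26 and 2 (2.33%) were higher, while 24.9% of all genes were lower and 27.2% were higher. The median log2 fold change was −0.32 over the members and −0.07 over all genes. Without the 2 libraries that stood apart, neither of which belongs to the KO groups of this comparison, the median was −0.29 and 40 members (46.5%) fell, against 29.7% of all genes, so that whether the members' share was below or above that of all genes depended on these libraries. In 42 members (48.8%) both day 26 libraries lay below all 4 libraries of day 20, against 35.9% of all genes. Of the large-subunit members 7 of 53 fell, and of the small-subunit members 11 of 33. Calls again depended on single libraries: 10 members passed without KO day 26 replicate 1, 5 without replicate 2, 13 without KO day 20 replicate 1 and 12 without KO day 20 replicate 2. The share of members that were lower in these fits was 10.5%, 5.81%, 12.8% and 11.6%, against 16.3%, 13.0%, 23.0% and 22.2% of all genes.

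Of the members that fell, 6 did so in both genotypes, among them Rpl3, Rps19, Rps2 and Rpsa. They made up 25% of the WT list and 33.3% of the KO list, while the genes lower in both among all genes made up 76.7% and 55.7% of theirs. When the libraries that stood apart were left out 12 members fell in both, 50% of the WT list and 30% of the KO list, against 78.6% and 52.8% for all genes. In KO, Rps2 had 267, 225, 209 and 219 CPM at day 20 against 164 and 162 at day 26 (−0.50 ± 0.11, adjusted p = 0.00128). Rpsa had 495, 428, 383 and 333 CPM against 235 and 245 (−0.77 ± 0.20, adjusted p = 0.00369). The groups did not overlap in either gene. Rpl3 changed by −0.63 ± 0.17 and Rps19 by −0.67 ± 0.20.

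Of the 4 X-linked members, 3 fell in KO. Rps4x, the X-linked form of a small-subunit protein, had 96.8, 109, 86.5 and 74.2 CPM at day 20 and 38.2 and 40.6 CPM at day 26 (−1.22 ± 0.33, adjusted p = 0.00507). Rpl39 had 55.5, 57.3, 33.0 and 31.0 CPM against 21.1 and 17.0 (−1.21 ± 0.48, adjusted p = 0.0425). Rpl10, which joins the large subunit late in assembly, had 140, 140, 116 and 115 CPM against 60.9 and 67.4 (−0.99 ± 0.28, adjusted p = 0.00551). All 3, like 48.8% of the members and 35.9% of all genes, were lower in both day 26 libraries than in any day 20 library. So was the X-linked Rpl36a, with 10.3 and 11.4 CPM against 15.2 to 19.8, whose change of −0.68 ± 0.32 did not pass in KO (adjusted p = 0.0802). Without the libraries that stood apart Rpl36a fell by 0.65 on the log2 scale in KO (adjusted p = 0.0149) and by 0.65 in WT (adjusted p = 0.0233). In WT the values of Rps4x were 59.7, 115, 112 and 82.6 CPM against 66.0 and 66.6, and those of Rpl10 were 84.1, 148, 146 and 113 against 91.1 and 98.5, so that the groups overlapped. They also overlapped for Rpl39, with 24.3, 81.1, 40.3 and 37.7 CPM against 31.9 and 31.1.

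Outside the X chromosome, Rpl22 (−0.75 ± 0.21), Rpl7l1 (−0.41 ± 0.11) and Rps27l (−0.47 ± 0.17) fell in KO. The 2 members that rose in KO were Rps4l and Rpl26. Rps4l had 50.9, 41.7, 49.3 and 57 CPM at day 20 and 71.8 and 73.0 at day 26 (0.54 ± 0.16, adjusted p = 0.00682). Rpl26 had 1.45, 1.63, 0.792 and 0.813 CPM against 2.0 and 2.52 (0.95 ± 0.37, adjusted p = 0.0361), with 11 to 44 counts per library over the series.

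Whether the change with age differed between genotypes was tested as the KO change minus the WT change. No member passed in edgeR or in DESeq2, and 7 of 86 (8.14%) had an unadjusted p under 0.05 in edgeR. Of all genes, 0% were called by edgeR, with 1857 (10.8%) at an unadjusted p under 0.05, and DESeq2 called 33 with a higher and 183 with a lower value. The lowest adjusted p among members was that of Rpl7a (0.83 ± 0.28, adjusted p = 0.23), whose KO libraries had 234, 200, 198 and 186 CPM at day 20 and 193 and 199 at day 26. Rplp2 was next, with a difference of −1.0 ± 0.34 (adjusted p = 0.243). Its KO libraries had 66.3, 72.3, 60.1 and 59.5 CPM against 60.4 and 48.6, while its WT libraries rose. Rpl26 had the largest difference with all libraries, 1.28 ± 0.55 (adjusted p = 0.373). Without the libraries that stood apart these differences were 0.65, −0.80 and 0.94 in that order, and Rpl22l1 went beyond them with −1.11 (adjusted p = 0.0862). No member passed in edgeR in that fit, with 24 of 86 (27.9%) at an unadjusted p under 0.05, against 21.2% of all genes. The median difference over the members was 0.07 with all libraries and −0.16 without these.

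KO was then compared with WT at each age. None of the 86 members passed the threshold on any of the 4 days in edgeR or DESeq2. At an unadjusted p under 0.05, edgeR gave 8, 6, 0 and 2 of the 86 members (9.30%, 6.98%, 0% and 2.33%), against 12.5%, 14.6%, 5.23% and 11.5% of all genes. The share of all genes called at the adjusted threshold was 3.34% for day 20, 2.51% for day 22, 0.0874% for day 24 and 0.0466% for day 26. The median log2 fold change over the members was −0.11, −0.25, −0.06 and −0.03 in the order of the days, and 78 of 86 members had a negative value at day 22. Without the libraries that stood apart the medians of days 20 and 22 were 0.11 and −0.04, with 50 of 86 members negative at day 22, and with RLE scaling that of day 26 was 0.02. All KO libraries lay below all WT libraries in 0, 8, 32 and 20 members in the order of the days (0%, 9.30%, 37.2% and 23.3%). For all genes these shares were 1.68%, 4.45%, 21.4% and 31.1%. They lay above in 0, 0, 11 and 20 members (0%, 0%, 12.8% and 23.3%), against 3.03%, 3.64%, 22.6% and 27.8% of all genes. Without the libraries that stood apart, edgeR called Rpl10l and Rpl39l at day 20, higher in KO by 0.62 (adjusted p = 0.0337) and 0.72 (adjusted p = 0.0261).

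Fitted on the groups of day 26 alone, with 2 libraries each, the test called 9 members higher and 7 lower in KO (10.6% and 8.24%, against 7.51% and 5.27% of all genes), among them Rplp2, Rpl10, Rpl39 and Rps4x as lower. With the spread of all 24 libraries none of these passed.

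Over the mean of the 4 days, edgeR called Rplp0 alone, higher in KO, and DESeq2 called Rplp0 as higher and Rpl36a as lower. With a replicate block edgeR called Rpl36a and not Rplp0. Of all genes, 3.52% were higher and 3.56% lower. Rplp0 had 405, 501, 510 and 617 CPM in WT and 772, 660, 613 and 579 CPM in KO at day 20. The next age, day 22, gave 406, 671, 414 and 428 CPM in WT and 705, 556, 591 and 484 CPM in KO. Day 24 gave 560 and 431 CPM against 592 and 619, and day 26 gave 454 and 390 CPM against 598 and 535. The groups overlapped at days 20 and 22 and did not at days 24 and 26, when both KO libraries lay above both WT libraries in 22.6% and 27.8% of all genes. The log2 fold change was 0.34 ± 0.10 (adjusted p = 0.0434), and when each of the 24 libraries was left out in turn it ranged from 0.31 to 0.40 and passed in 11 of the 24 fits. The other stalk genes were called by neither tool. The group means of Rplp1 were 223, 160, 137 and 112 CPM in WT and 168, 116, 127 and 122 CPM in KO in the order of the days, and its KO library of day 22 replicate 4 had 68.7 CPM. Those of Rplp2 were 53.8, 62.0, 79.1 and 91.0 CPM in WT and 64.5, 58.9, 75.6 and 54.5 CPM in KO. At day 26 both KO libraries lay below both WT libraries for Rplp2, as in 31.1% of all genes.

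The X-linked members all had a negative log2 fold change in KO over the mean of the days, and none passed the threshold in edgeR. With all libraries 73 of the 86 members had a negative value and the median over the members was −0.11, while 49.0% of all genes were negative. Without the libraries that stood apart 40 of 86 were negative, with a median of 0.01, against 43.9% of all genes. DESeq2 called Rpl36a (−0.49, adjusted p = 0.0303), as did edgeR with total counts alone (adjusted p = 0.0450) and with a replicate block (adjusted p = 0.0459). Rpl36a changed by −0.50 ± 0.16 (adjusted p = 0.0528), Rps4x by −0.42 ± 0.16 (adjusted p = 0.105), Rpl39 by −0.40 ± 0.23 (adjusted p = 0.31) and Rpl10 by −0.23 ± 0.13 (adjusted p = 0.316). With each library left out in turn, these changes ranged from −0.55 to −0.45, −0.50 to −0.32, −0.53 to −0.29 and −0.31 to −0.11 in that order. Without the libraries that stood apart Rpl10 changed by −0.15. Of the 16 comparisons of these 4 genes over the 4 days, 15 had a negative log2 fold change, with Rpl10 at day 20 as the exception. Without the libraries that stood apart 13 were negative, and Rpl10, Rpl39 and Rps4x were positive at day 20. Of all 86 members, 60, 78, 57 and 49 were negative in the order of the days with all libraries and 25, 50, 57 and 45 without these. Without the libraries that stood apart, Rpl36a was called (−0.38, adjusted p = 0.0349), as were Rplp0, Rpl10l and Rps13 as higher.

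**Figure D4:**
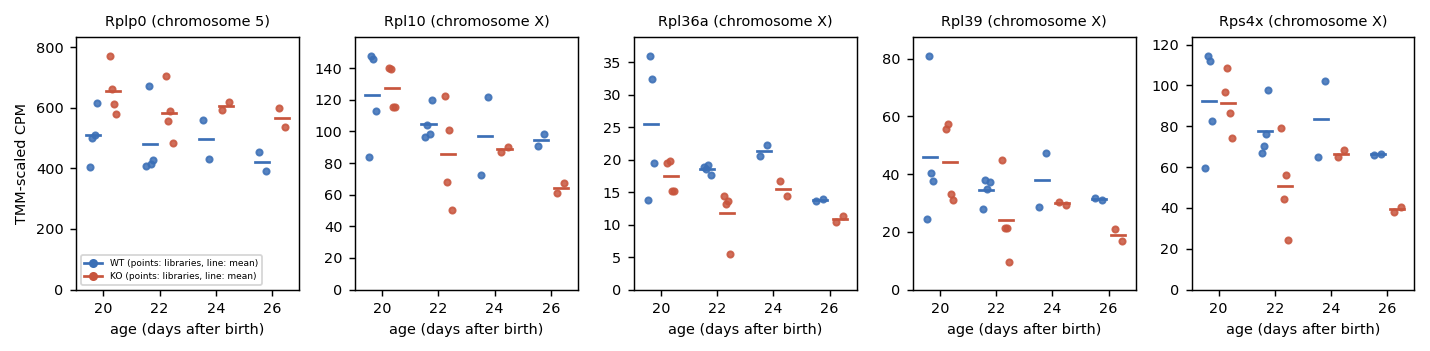
TMM-scaled CPM (vertical axes) of Rplp0 and the 4 X-linked members in each library by age in days, with WT in blue, KO in red and lines at the group means. Rplp0 has higher KO means at every age. At day 26 the KO libraries of Rpl10 (60.9 and 67.4 CPM), Rpl39 and Rps4x lie below the WT ones, as they do for 31.1% of all genes and 23.3% of members.

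Rpl36a, a large-subunit protein near the exit site for transfer RNA, had 13.8, 36.0, 32.4 and 19.4 CPM in WT and 19.4, 19.8, 15.2 and 15.2 CPM in KO at day 20. At day 22 all 4 WT libraries (18.9, 18.6, 19.2 and 17.6 CPM) exceeded all 4 KO libraries (14.5, 13.2, 13.6 and 5.50 CPM). The same held at day 24, with 20.5 and 22.2 against 16.6 and 14.4, and at day 26, with 13.7 and 14 against 10.3 and 11.4, as it did for 21.4% and 31.1% of all genes.

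The 8 paralogous copies were set beside their parents per length. The coding sequences of Rpl36al and Rpl36a are 87.7% identical, those of Rpl10l and Rpl10 84.7%, those of Rps27l and Rps27 76.2%, those of Rpl3l and Rpl3 73.0%, those of Rpl22l1 and Rpl22 66.9%, and those of Rpl7l1 and Rpl7 49.7%. None of the 75-base stretches of Rpl39l and 0.316% of those of Rpl10l occur elsewhere, against 91.9% of the parent Rpl10, so the counts of Rpl10 can be less complete than those of Rpl10l. The shared part was 84.6% for Rpl36a and 61.3% for Rpl36al, and 52.9% for Rps4x and 8.11% for Rps4l. The counts of these 2 parents can likewise be less complete than those of their copies. For the parent Rpl39 it was 7.62%.

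Rpl10l, an intronless autosomal copy, had 0.537 to 2.61 of the level of its X-linked parent per kilobase between libraries. This depends on the lengths used, which were 1023 of 1023 exon bases for Rpl10l and 799 of 2053 for Rpl10. The ratio of Rpl10l to Rpl10 per kilobase was 1.03 ± 0.389 (SD, n = 4) in WT and 1.14 ± 0.190 (n = 4) in KO at day 20. At day 26 it was 1.27 ± 0.210 (n = 2) in WT and 2.37 ± 0.335 (n = 2) in KO. Rpl10l itself stayed between 101 and 272 CPM in all 24 libraries, with group means of 149 to 194 CPM.

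Rpl39l exceeded Rpl39 per kilobase in every library, with a ratio of 2.0 ± 0.567 (n = 4) in WT at day 20 and 4.21 ± 0.702 (n = 2) at day 26. In KO the ratio was 2.63 ± 0.295 (n = 4) and 7.08 ± 0.864 (n = 2). The ranges of day 20 and day 26 did not overlap in either genotype.

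The ratio of Rps4l to Rps4x was 0.668 ± 0.365 (n = 4) in WT and 0.695 ± 0.197 (n = 4) in KO at day 20, and 1.18 ± 0.0157 (n = 2) and 2.27 ± 0.0722 (n = 2) at day 26. Rpl36al exceeded Rpl36a per kilobase in all libraries but 1, with ratios of 1.36 ± 0.389 (n = 4) in WT and 1.89 ± 0.110 (n = 4) in KO at day 20, and 2.44 ± 0.142 (n = 2) and 2.96 ± 0.439 (n = 2) at day 26. In each of these 4 pairs the parent is X-linked and the copy is autosomal, and the highest group mean was that of KO at day 26. The ratios were not tested.

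**Figure D5:**
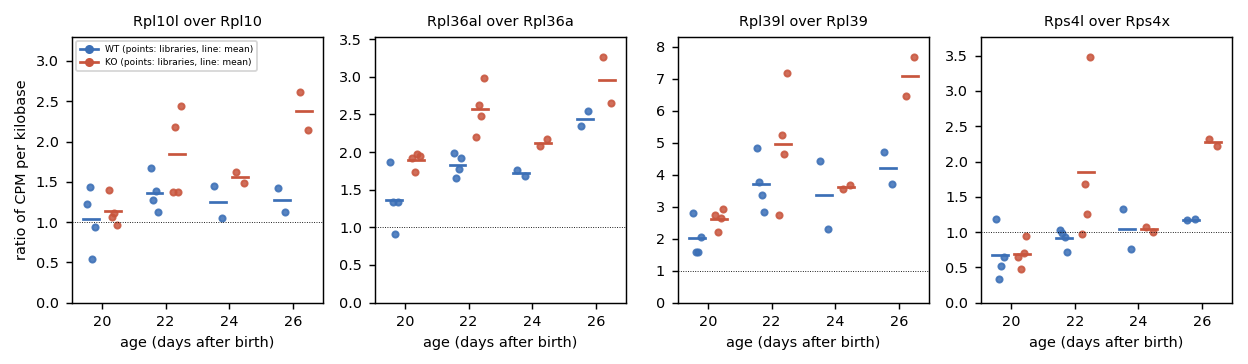
Ratio of the autosomal copy to its X-linked parent in CPM per kilobase (vertical axes) for 4 pairs in each library by age in days, with WT in blue, KO in red, lines at the group means and a dotted line at equality. The mean ratio in KO at day 26 is 2.37 for Rpl10l, 2.96 for Rpl36al, 7.08 for Rpl39l and 2.27 for Rps4l, above that of WT in each pair.

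The copies of autosomal parents were lower than their parents, except for Rps27l. Rpl22l1, a relative of the RNA-binding Rpl22, had 0.132 ± 0.0375 (n = 4) of the parent level per kilobase in WT at day 20 and 0.299 ± 0.0382 (n = 2) at day 26. Rpl7l1 had between 0.0437 and 0.117 of the level of Rpl7. Rpl3l, the striated muscle form of Rpl3, had at most 0.718 CPM in any library and 0 in WT day 20 replicate 2, so no fold change is given. Rps27l, in contrast, had 59.7 CPM and Rps27 1.67 CPM on average, and 98.5% of the Rps27 transcript is shared with other genes.

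Other genes of the translation apparatus were described by the same counts. Of 20 further genes with a terminal oligopyrimidine tract or an additional ribosomal role, 5 rose and 3 fell from day 20 to day 26 in WT (25% and 15%), and 4 rose and 1 fell in KO (20% and 5%). Of all genes, 24.4% rose and 18.1% fell in WT and 27.2% rose and 24.9% fell in KO. Gnb2l1, which encodes the ribosome-bound RACK1, fell in both (−0.58 ± 0.16 and −0.76 ± 0.17), whereas Eef1d (1.55 ± 0.18 and 1.49 ± 0.18), Eef1g (0.92 ± 0.16 and 0.51 ± 0.16) and Pabpc1 (0.83 ± 0.21 and 0.93 ± 0.21) rose in both. Eef1d and Eef1g encode parts of the exchange factor of translation elongation and Pabpc1 the poly(A)-binding protein.

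Of 48 genes of ribosome assembly, 22 fell and 1 rose in WT (45.8% and 2.08%), and 18 fell and 5 rose in KO (37.5% and 10.4%), against 18.1% and 24.4% of all genes in WT and 24.9% and 27.2% in KO. Nucleolin (Ncl) fell by 0.83 on the log2 scale in WT and by 0.76 in KO, and the polymerase I subunit Polr1b fell by 0.69 and by 0.99. Nop14 rose by 0.62 and 1.0 on the same scale. Of 77 mitochondrial ribosomal protein genes, 17 fell and 8 rose in WT (22.1% and 10.4%), and 15 fell and 9 rose in KO (19.5% and 11.7%), beside the same shares of all genes. Over the mean of the 4 days, 1 ribosome assembly gene was lower in KO and no gene of the other 2 lists passed in edgeR.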

How the data were processed

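Counts per gene were deposited for each of 24 libraries. The authors depleted ribosomal RNA, sequenced stranded libraries as paired reads of 75 bases, aligned them to mm10 with STAR 2.7.11b and counted exonic pairs per gene by strand with HTSeq, leaving out pairs with several alignments, and used DESeq2 1.22.2 (submitters' processing notes and methods). The deposited counts are not normalised. Rows without a gene name, such as pairs in no feature (45.1% to 58.5% of pairs) or with several alignments (4.74% to 13.7%), entered neither library sizes nor tests.

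Counts were analysed with edgeR 4.0.16 in R 4.3.3: filterByExpr with a minimum count of 10, TMM scaling, 1 robust quasi-likelihood fit over 8 groups and 24 libraries, and Benjamini-Hochberg adjustment over 17170 genes at 0.05. The SE is the absolute log2 fold change over the root of F. Library depth was 10709667 to 19491935 assigned counts, and the limit of detection was set at 3 counts. DESeq2 1.42.0, RLE scaling, total counts alone, no filter, a non-robust fit, the compared groups alone, a replicate block and each library left out were tried. The method was tested on simulated data. Positions and lengths come from GENCODE M21 (GRCm38), matched by symbol for 23386 genes and by RefSeq synonym for 689, with 381 unmatched.

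Members and lists were chosen with earlier results of these data known. The named genes are the 8 members at most with the lowest adjusted p in each direction of the WT age comparison, members called for KO, the 8 copies with their parents, X-linked members, Rpsa and the stalk genes, and the 3 highest and 3 lowest per length. Rps13 and other members outside this rule were named after their values were seen. One member is not reported by name here.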

Additional observations from a re-analysis of the deposited data

Results flagged for a closer look

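Of 128 sets of 4 libraries examined for the named members and their share, 14 held a library whose gap to the nearest other library, over the range of the set, was past Dixon's 95% critical value. A single set passes by chance about 1 in 20 times. The sets share the same libraries and are not independent, so the 14 cannot be measured against this rate. WT day 20 replicate 2 was the far library in 7 of them: Rpl14 (297 CPM, others 156 to 171), Rpl28 (257, others 139 to 158), Rpl36al (52.5, others 28.1 to 32.2), Rplp1 (392, others 147 to 181), Rpl41 (753, others 240 to 277), Rps26 (872, others 342 to 419) and Rpl26 (2.53, others 0.943 to 1.21). The same library had the highest share of pairs with several alignments (13.7%), whose part in these values was not tested.

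KO day 22 replicate 4 was far below the others for Rpl36al (17.8 CPM, others 34.6 to 37.8) and Rpl36a (5.50 CPM, others 13.2 to 14.5). KO day 20 replicate 1 was above the others for Rpl3 (267 CPM, others 215 to 222) and Rpl7l1 (54.0 CPM, others 45.9 to 46.9). In WT at day 22, replicate 2 was far above the rest for Rplp0 (671 CPM, others 406 to 428) and replicate 1 for Rpl10l (207 CPM, others 169 to 175). In KO at day 22, replicate 3 was below the others for Rps27 (1.32 CPM, others 2.08 to 2.22).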

How the results depend on the processing

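Of 36 log2 fold changes of members fitted with all libraries and checked, none changed sign under the alternatives run. Of these, 35 kept their side of the threshold with DESeq2, 34 with RLE scaling, 31 with total counts alone, 35 without the filter, 36 with a non-robust fit and 32 with the replicate block, and 20 of 31 with the compared groups alone. The number of members called moved more. For day 26 against day 20 in WT (27 called) it was 44 with the replicate block, 5 with the compared groups alone, and 6 to 43 when each library was left out in turn. Of all genes, 42.5% were called with all libraries, 45.2% and 20.2% in the first 2 of these fits, and 27.0% to 46.4% with each library left out. In KO (20 called) it was 40 with total counts alone, 33 with the replicate block, 42 without the libraries that stood apart, and 5 to 29 with each library left out. Of all genes, 52.2% were called with all libraries, 56.6%, 53.2% and 61.2% in the first 3 of these fits, and 33.4% to 59.1% with each library left out. Total counts alone shifted the median of all genes by −0.10 in WT and by −0.19 in KO. For KO against WT over the mean of the days (1 called) it was 2 with total counts alone, 2 with DESeq2, 4 without the libraries that stood apart, and 0 to 3 with each library left out, beside 7.08% of all genes with all libraries and then 6.57%, 10.6%, 10.4% and 1.73% to 10.1%. It was 2 at day 20 without the libraries that stood apart (3.23% of all genes), 16 at day 26 with the compared groups alone (12.8% of all genes), and 0 to 1 at days 20 and 22 with each library left out. The cause was not tested.

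With all pairs as denominator, the mean share of the members was 0.555%, 0.543%, 0.507% and 0.448% in WT and 0.534%, 0.461%, 0.457% and 0.449% in KO at days 20, 22, 24 and 26. Without the 8 copies it was 1.11% in WT and 1.09% in KO at day 24 and 0.936% in KO at day 26, where summed TMM-scaled CPM gave 1.09%. The group means fell from day 20 to day 26 in each. Same-numbered WT and KO libraries correlated at 0.07 to 0.41 at day 20, −0.46 to −0.03 at day 22, 0.39 at day 24 and 0.42 at day 26, so that the numbers were not treated as pairs, and with 2 numbers a day the last 2 values are hints only. Summed epididymis markers were high in the same number in both genotypes at day 20 (replicate 3, 276 CPM in WT and 50.4 in KO), day 24 (replicate 2, 716 and 157) and day 26 (replicate 2, 545 and 128), and not at day 22. With the replicate block, Rpl36a was called in place of Rplp0 over the mean of the days. No fit on the compared groups alone was made for that mean. Depth limits the members near 3 counts, such as Rpl3l.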

Other observations

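Among the 7 rows with "-ps" in the symbol that the rule left out, Rps15a-ps6, a processed pseudogene on chromosome 11, had 84 to 150 counts in the 8 WT libraries of days 22 to 26 and 16 to 28 counts in the 12 KO libraries. At day 20 the WT libraries had 65, 114, 19 and 23 counts, so that replicates 3 and 4 lay within the KO range. Rps15a-ps4, a transcribed processed pseudogene on chromosome 4, had 15 to 31 counts in the WT libraries of days 22 to 26, 8, 18, 6 and 3 counts in those of day 20, and 1 to 6 counts in the KO libraries. Atad2 itself did not overlap between the genotypes.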
